A study of Rattus norvegicus with 8 samples.

Results

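The CYP2 and CYP3 families hold most of the cytochrome P450 enzymes with which the liver oxidises drugs, steroids and fatty acids. Their genes were compared between livers of rats given butyrate-containing structured lipids, called STL, and control livers. The members were all genes whose array probe carried a name beginning with Cyp2 or Cyp3 and a lower-case letter, which left out Cyp27a1 and Cyp39a1. There were 42 such genes in 15 subfamilies, with 55 probes of 60 bases, among 36175 genes or names on the array. Of these, 35 members of 12 subfamilies were tested, and on every one of the 8 arrays each of the 35 was well above background. The other 7 were not tested: Cyp2a3, Cyp2ac1, Cyp2b12, Cyp2g1 and Cyp2w1 were well above background on 0 arrays, Cyp2j16 on 1 STL array, and Cyp2j10 on 2 control arrays and 1 STL array.

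All animals were male Wistar rats, labelled as 4 per group, and total RNA of liver tissue was hybridised to 1-colour Agilent arrays. Control rats received maltodextrin (3.0 g per kg body weight), and STL rats received 1.65 g per kg of the lipids by gavage each day, doses matched in energy. In both groups the resistant hepatocyte protocol of chemical hepatocarcinogenesis began 2 weeks into treatment, and livers were taken at week 8, so both groups carry the carcinogen treatment. The labels give no age at entry and do not say whether lesions or the tissue around them were sampled. Whole tissue was measured, so fewer cells of a type and less RNA per cell cannot be told apart.

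The values are log2 of the processed signal minus the array's 75th percentile, called the level here. A level of 0 is that percentile, a difference of 1 is 2-fold, and levels are compared between samples of 1 gene and not between genes. The arrays labelled control 1 and control 2 differed by 1.04 times the noise between repeated spots, against 2.14 to 6.81 times in the other 27 pairs of arrays. They were averaged, which left 3 control samples against 4 STL samples. The next closest pairs crossed the groups: STL 6 with control 2, at 2.14, and with control 1, at 2.20. The closest pair of STL arrays was STL 6 and STL 8, at 2.73. Control 4 stood apart from the other controls in most members, and differences of members that it moved by over 1.5 times are given with and without it. The Y-linked genes Eif2s3y and Kdm5d were well above background on all 8 arrays, a check added after the data were seen. Eif2s3y was at 1.11 in control 4 and 1.24 to 1.47 on the other arrays. Kdm5d was at -1.38 in control 4, inside the range of the other arrays, -1.75 to -1.29. Sample names follow the scanner files: in the authors' series table, 6 of 8 columns held values of another array of the same group, but the columns labelled control 1 and control 4 held their own.

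A cytochrome P450 carries a heme group and takes electrons from NADPH through cytochrome P450 reductase, with cytochrome b5 as a helper. In rats many of these genes are sex-biased. The pulses in which males secrete growth hormone maintain Cyp2c11 in the liver, the steadier secretion of females maintains Cyp2c12, and the nuclear receptors CAR and PXR induce Cyp2b and Cyp3a genes after drug exposure. In the resistant hepatocyte model, initiated hepatocytes that grow into lesions are known for low phase I enzymes, the class to which these P450s belong.

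Close relatives lie side by side in the genome, so the sequence of a probe decides which member it can report. The following probes are printed 5′ to 3′ with their positions in rn4, the build given by the file headers. The first pair shows how far Cyp2a1 (chr1:82019991-82020050, plus strand) and Cyp2a2 (chr1:82063430-82063489, plus strand) can be separated. Over 50 shared positions 44 bases were equal, and capitals mark those that differ.
Cyp2a1: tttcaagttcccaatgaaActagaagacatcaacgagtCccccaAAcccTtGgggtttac
Cyp2a2: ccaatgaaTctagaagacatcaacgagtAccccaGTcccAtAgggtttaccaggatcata
Cyp2d1 (chr7:120769703-120769762, minus strand) and Cyp2d5 (chr7:120760436-120760495, minus strand) were equal at 56 of 58 positions, and the last 30 bases of each probe hold both differences, in capitals.
Cyp2d1: ctgagccacgtttaataaaccagtcttTTg
Cyp2d5: gagccacgtttaataaaccagtcttGAggc
How far these probes tell the 2 genes apart was not tested. Among the other members, the closest probes of different genes were Cyp2c6v1 and Cyp2c7, equal at 47 of 57 positions, Cyp2c12 and Cyp2c13, at 41 of 54, and Cyp3a18 and Cyp3a62, at 41 of 52. Probes were compared only with each other, so whether another member's RNA binds a probe was not tested. In that comparison, probes of 2 members on which results turn had no close match to another member's probe: Cyp2e1 (chr1:200927736-200927795, plus strand) and the brighter probe of Cyp3a23/3a1 (chr12:9574359-9574418, minus strand).
Cyp2e1: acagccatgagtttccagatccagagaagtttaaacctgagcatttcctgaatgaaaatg
Cyp3a23/3a1: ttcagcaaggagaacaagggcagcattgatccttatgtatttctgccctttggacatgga

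Most CYP2 and CYP3 members had a higher mean level in the STL livers, but none passed the test. With limma and Benjamini-Hochberg adjustment over 21871 genes, 0 of 35 members had an adjusted p under 0.05, and 1 gene of all (0.00457%) did, which was Cish. By mean level 28 of 35 members were higher in STL and 7 lower, while 58.0% of all genes tested were higher. At an unadjusted p under 0.05, 8 members were higher, Cyp2a1, Cyp2a2, Cyp2d4, Cyp2e1, Cyp2j4, Cyp3a2, Cyp3a23/3a1 and Cyp3a73, against 11.5% of all genes. In the other direction there were 2 members, Cyp2c24 and Cyp3a62, against 7.38% of all genes. In 3 members, Cyp2a1, Cyp2a2 and Cyp2e1, every STL sample lay above every control sample, as it did in 11.2% of all genes. In Cyp2c24 and Cyp3a62 every STL sample lay below every control sample, as in 5.62% of all genes, so the members' counts of groups that do not overlap lay near the background.

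The median log2 difference of the 35 members, STL minus control, was 0.43, beside 0.06 for all genes tested. Without control 4 these medians were 0.23 and 0.04. Other hepatocyte genes also had positive medians. The 9 hepatocyte markers tested, 8 of them higher, had a median of 0.41, and 0.19 without control 4. Of 11 other phase I enzymes tested 9 were higher, with a median of 0.22, and without control 4 there were 7, with a median of 0.12. Among those, the flavin monooxygenase Fmo1 differed by 0.68 (adjusted p = 0.184), or 0.41 without control 4, and the aldehyde oxidase Aox1 by -0.53 (adjusted p = 0.259). The members' median was 0.26 with quantile normalization and 0.27 with array weights. By limma, 10 members had an unadjusted p under 0.05 with all samples, beside 4138 of all 21871 genes tested. The count of members was lowest, at 4, without control 4 or without STL 5, beside 2899 and 3137 of all genes. It was 5 without STL 7, beside 3345, and 22 with control 1 and 2 both left out, beside 4989. Without control 4, 2 members were higher and 2 lower at that p, beside 1725 and 1174 of all genes. Among all genes at that threshold 61.0% were higher in STL, against 45.5% with median scaling and 75.6% with normexp background correction. For members those counts were 5 higher and 2 lower with median scaling and 8 and 2 with normexp.

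**Figure D1:**
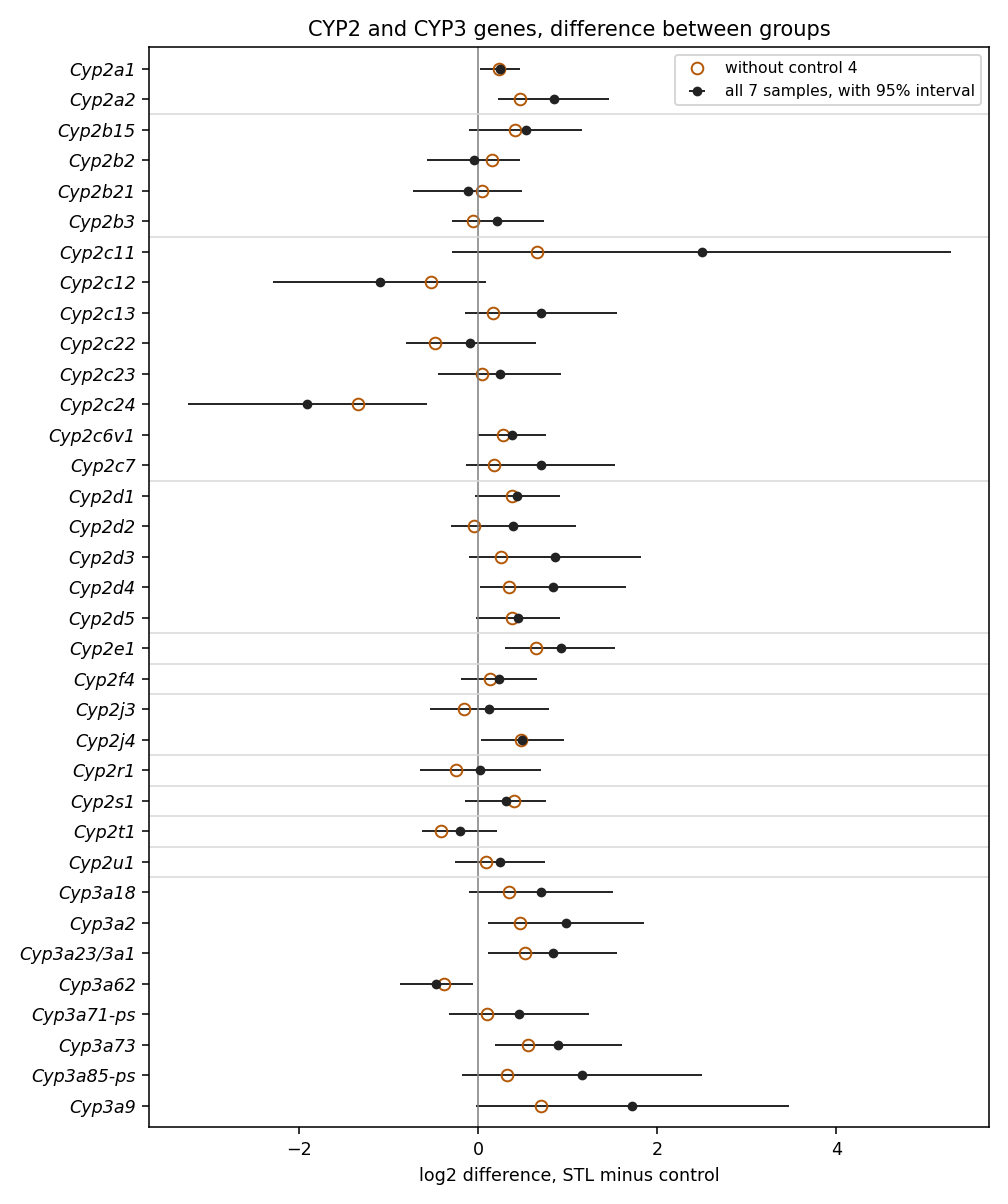
Log2 difference, STL minus control, of the 35 members tested, grouped by subfamily. Black points with bars are the limma estimates and 95% intervals over 3 control and 4 STL samples, and open circles are the differences without control 4. The open circles lie nearer to 0 than the black points in most members, with Cyp2c11 at 2.50 against 0.66.

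Cyp2e1, the enzyme that oxidises ethanol and small solvents, had the smallest p of the members. Its level was 7.76 in the averaged control 1 and 2, 7.23 in control 3 and 6.65 in control 4, against 8.12, 8.01, 8.56 and 7.84 in STL 5, 6, 7 and 8. Every STL liver lay above every control, although STL 8 was within 0.1 of the averaged control. The means were 7.22 ± 0.56 (SD, n = 3) and 8.13 ± 0.31 (SD, n = 4). They differed by 0.92 (SE 0.27, 95% interval 0.30 to 1.53), which is 1.89-fold. It did not pass over all genes (limma adjusted p = 0.179), and without control 4 the difference was 0.64 (adjusted p = 0.340).

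The Cyp2a steroid hydroxylases were also separated by group. Cyp2a1, a steroid 7-alpha-hydroxylase, was at 4.64, 4.75 and 4.65 in the controls and at 4.99, 4.90, 4.93 and 4.86 in the STL livers. The controls, control 4 included, lay within 0.11 of each other, and the difference was 0.24 (SE 0.10, adjusted p = 0.240), or 0.23 without control 4. Cyp2a2, a male-predominant testosterone hydroxylase, was at 4.60, 4.45 and 3.41 in the controls and at 5.30, 4.82, 4.88 and 4.97 in the STL livers. Here control 4 lay far below the other controls, and the difference was 0.84 (SE 0.27, adjusted p = 0.193), or 0.47 without control 4. The 2 probes share the bases printed above, and how far each gene's RNA binds the other's probe was not tested.

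The Cyp3a genes code for steroid 6-beta-hydroxylases that also clear many drugs. Of 8 members 7 had a higher mean in STL, with a median difference of 0.86, and 0.40 without control 4. Cyp3a2, the main male form, was at 8.43, 8.05 and 6.69 in the controls and at 8.96, 8.36, 8.99 and 8.50 in the STL livers. STL 6 lay below the averaged control, so the groups overlapped, and the difference was 0.98 (SE 0.38, adjusted p = 0.232), or 0.46 without control 4. Cyp3a73 was at 7.99, 7.57 and 6.76 in the controls and at 8.61, 7.87, 8.71 and 8.14 in the STL livers, a difference of 0.89 (adjusted p = 0.204), or 0.55 without control 4. Its other probe differed by 0.87, and there every STL liver lay above every control. Cyp3a23/3a1, the form best known for induction through PXR, was at 7.52, 6.98 and 6.34 in the controls and at 7.97, 7.22, 8.27 and 7.64 in the STL livers. By the brighter probe of both genes STL 6 lay below the averaged control and above control 3. The difference of Cyp3a23/3a1 was 0.83 (adjusted p = 0.225), or 0.52 without control 4. By its other probe the difference was 0.63, and there control 4, at 6.40, was the highest control, so the 2 probes placed that liver differently.

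Cyp3a18 and Cyp3a9, which hydroxylate testosterone and are more abundant in males and in females respectively, also had their lowest level in control 4. Cyp3a18 was at 7.35, 6.63 and 5.92 in the controls and at 7.19, 6.77, 7.89 and 7.49 in the STL livers. Cyp3a9 was at 4.49, 3.35 and 0.87 in the controls and at 4.64, 3.55, 5.41 and 4.91 in the STL livers. In both, the averaged control lay inside the STL range. The differences were 0.70 for Cyp3a18 (adjusted p = 0.308) and 1.72 for Cyp3a9 (SE 0.77, adjusted p = 0.272), or 0.34 and 0.70 without control 4. Cyp3a62, a form known from the gut, went the other way. It was at 1.57, 1.72 and 1.91 in the controls and at 0.91, 1.53, 1.54 and 1.09 in the STL livers, so every STL sample lay lower, with STL 7 only 0.03 under the averaged control. The difference was -0.47 (SE 0.18, adjusted p = 0.230). The pseudogenes Cyp3a71-ps and Cyp3a85-ps differed by 0.45 and 1.16, and by 0.10 and 0.32 without control 4.

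The promoters of Cyp3a2 and Cyp3a23/3a1 are shown because Cyp3a2 and the brighter Cyp3a23/3a1 probe put the 7 samples in the same order. The brighter Cyp3a73 probe did so too, but the other probes of Cyp3a23/3a1 and Cyp3a73 did not. Promoters were read from the RefSeq table of the GRCr8 build, which held 38 of the 42 member genes. In the 59 bases below 56 were equal between the 2 genes, and capitals mark CAAAGTCCA, a form of the site bound by HNF4-type nuclear receptors, which begins 97 bases before the start of Cyp3a2 (chr12:14343921-14343979, minus strand) and 110 before that of Cyp3a23-3a1, as RefSeq spells it (chr12:14398880-14398938, minus strand).
Cyp3a2: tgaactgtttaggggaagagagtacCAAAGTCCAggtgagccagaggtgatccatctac
Cyp3a23-3a1: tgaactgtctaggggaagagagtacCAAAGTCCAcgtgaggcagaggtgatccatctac
Searched on both strands of the 250 bases before each start, CAAAGTCCA was in 113 of 33469 promoters (0.338%), these 2 members among them. TGTTTAC, a FOXA-type motif, was in 3.21% of all promoters and in those of 5 members, Cyp2c7, Cyp2c22, Cyp2c23, Cyp3a2 and Cyp3a71-ps. TTCNNNGAA, a STAT5-type motif, was in 7.67% of all promoters and in those of 3 members, Cyp2j4, Cyp2t1 and Cyp3a73. No motif is contained in another, and a match describes the sequence only.

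The Cyp2c subfamily held the widest differences in both directions. Its 8 members, 5 higher and 3 lower in STL, ranged from -1.92 (Cyp2c24) to 2.50 (Cyp2c11), with a median of 0.30, and 0.10 without control 4. Cyp2c11, the main male-specific P450 and a testosterone hydroxylase, was at 6.27, 4.79 and 0.02 in the controls and at 6.89, 5.75, 5.91 and 6.21 in the STL livers. Control 4 was 76.1-fold below the averaged control, which itself lay inside the STL range. The means were 3.69 ± 3.27 (SD, n = 3) and 6.19 ± 0.51 (SD, n = 4). The difference of 2.50 (SE 1.22, 95% interval -0.29 to 5.28) was not past the threshold (adjusted p = 0.300), and without control 4 it was 0.66.

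Cyp2c12, the female-specific steroid sulfate hydroxylase, showed the opposite order among the controls. It was at 4.71, 6.22 and 7.17 in the controls and at 4.46, 5.56, 5.20 and 4.51 in the STL livers. Control 4 was the highest of the 7 samples and control 3 the next, while the averaged control lay inside the STL range. The difference was -1.10 (SE 0.52, adjusted p = 0.291) and -0.53 without control 4. The other Cyp2c12 probe gave a difference of -1.37 and the same order of controls, at 2.26, 3.65 and 4.54.

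Cyp2c24, listed here with the arachidonic acid epoxygenases, had the largest difference downwards. It was at -0.12, 1.24 and 2.24 in the controls and at -0.83, -0.13, -0.24 and -1.97 in the STL livers. The averaged control and STL 6 were 0.01 apart, so the groups met at their edge. The difference was -1.92 (SE 0.59, 95% interval -3.25 to -0.58, adjusted p = 0.183), or 3.77-fold lower, and -1.35 without control 4. It was the only member to pass in any alternative, and did so with array weights alone.

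The start sites of Cyp2c11 and Cyp2c24 are shown because their levels ran in opposite order over the controls although the sequence before them is shared. In the last 100 bases before each start, set against each other with a shift of 2 bases, 83 of 98 positions were equal (GRCr8, Cyp2c11 at chr1:246175116-246175215 and Cyp2c24 at chr1:246286241-246286340, plus strand). Capitals mark the 15 positions that differ.
Cyp2c11: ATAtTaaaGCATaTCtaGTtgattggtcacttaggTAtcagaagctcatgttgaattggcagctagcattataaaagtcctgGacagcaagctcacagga
Cyp2c24: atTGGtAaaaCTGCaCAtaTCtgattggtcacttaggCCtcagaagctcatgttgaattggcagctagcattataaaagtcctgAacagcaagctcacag
None of the 3 motifs searched was matched in the 250 bases before either start, which says only that these letters are absent there.

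The other Cyp2c members had smaller differences. Cyp2c13, male-specific, was at 7.95, 7.85 and 6.29 in the controls and at 8.04, 7.77, 8.32 and 8.13 in the STL livers, a difference of 0.70 that was 0.16 without control 4. Cyp2c7, a retinoic acid hydroxylase that is more abundant in females, was at 8.28, 8.28 and 6.69 in the controls and at 8.42, 8.24, 8.75 and 8.37 in the STL livers. In both genes control 4 alone lay clearly below the rest. The difference of Cyp2c7 was 0.70, and 0.17 without control 4. Its 5 probes differed by 0.48 to 0.78, and control 4 was the lowest sample in each of them. Cyp2c6v1, of a constitutive hepatic form, was at 7.77, 7.78 and 7.49 in the controls and at 8.31, 8.04, 8.13 and 7.73 in the STL livers, a difference of 0.37 (adjusted p = 0.268). Its other probes differed by 0.30 and 1.00. Cyp2c22 and Cyp2c23, an arachidonic acid epoxygenase, differed by -0.09 and 0.24, and by -0.48 and 0.04 without control 4. With quantile normalization Cyp2c23 differed by -0.01.

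**Figure D2:**
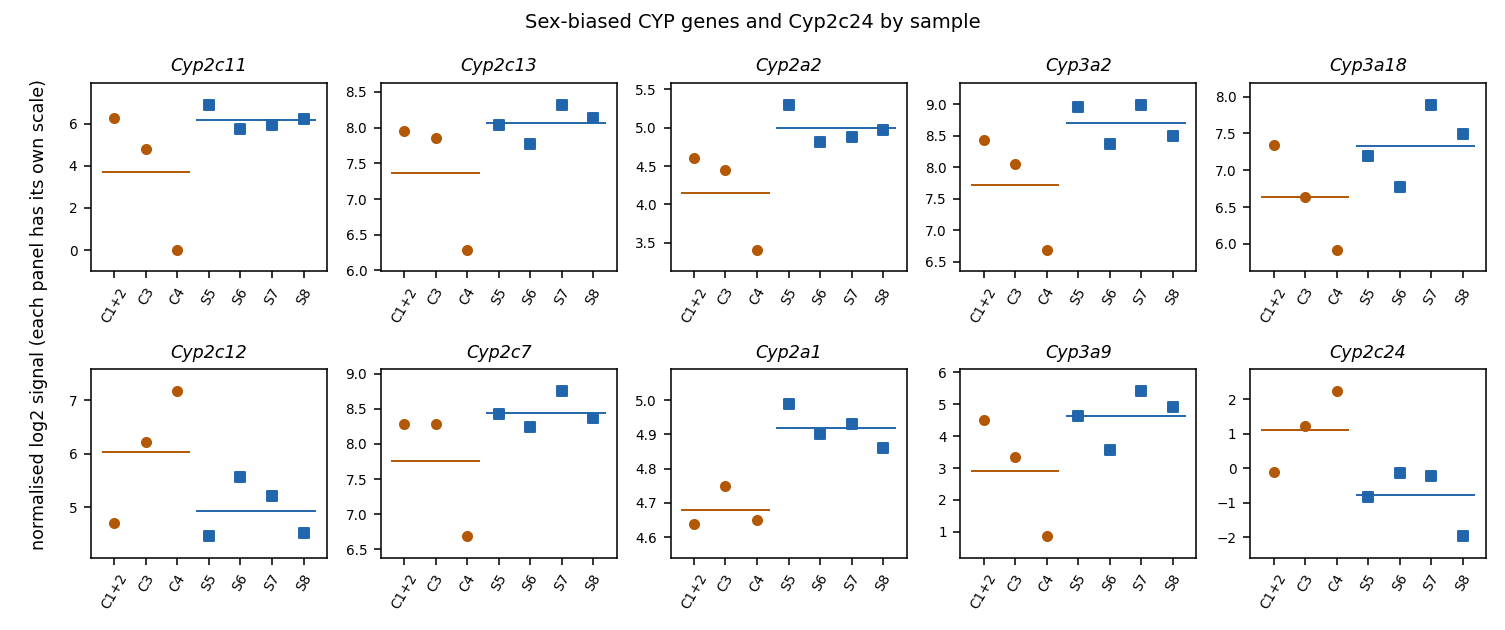
Normalised log2 signal of 9 sex-biased members and Cyp2c24 in each sample, with C1+2 the averaged control 1 and 2, C3 and C4 the other controls and S5 to S8 the STL livers. Lines are group means, and each panel has its own scale. Control 4 is lowest in Cyp2c11, Cyp2c13, Cyp2a2, Cyp3a2, Cyp3a18, Cyp2c7 and Cyp3a9 and highest in Cyp2c12 and Cyp2c24.

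In control 4 the male-predominant members all went the same way, while the female-predominant ones went both ways. All 5 male-predominant members tested, Cyp2c11, Cyp2c13, Cyp2a2, Cyp3a2 and Cyp3a18, had their lowest level in that liver, but so did Cyp2c7 and Cyp3a9 of the 4 female-predominant ones. Cyp2c12 was highest there, and Cyp2a1 was at 4.65, next to the lowest. Between STL and control, 5 of 5 male-predominant members were higher, with a median of 0.84, and 3 of 4 female-predominant members, with a median of 0.47. Without control 4 the counts were the same and these medians were 0.46 and 0.20. Growth hormone signalling genes are given here because that hormone sets the sex bias. Of 9 tested 6 were higher and 3 lower, with a median of 0.09, and without control 4 there were 5 and 4, with a median of 0.01. Cish, a STAT5 target that dampens cytokine receptor signalling, rose in STL by 2.19 (limma adjusted p = 0.0058), from -1.37, -1.48 and -1.16 in the controls to 0.73, 0.96, 1.11 and 0.61. Control 4 did not stand apart in Cish. The receptor gene Ghr was at 6.10, 6.26 and 5.32 in the controls and 6.10 to 6.46 in STL, a difference of 0.44 (adjusted p = 0.307), or 0.15 without control 4. Bcl6, a male-biased repressor, was at 3.75, 3.41 and 0.67 in the controls and 0.97 to 2.12 in STL, a difference of -1.02 (adjusted p = 0.426), or -1.99 without control 4, and Cux2, a female-biased factor, was at -3.44, -0.62 and -1.49 against -3.03 to -0.34 (adjusted p = 0.629).

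The Cyp2d genes oxidise many basic drugs and lie in a cluster on chromosome 7. All 5 had a higher mean in STL, with a median of 0.44, and 0.34 without control 4, where Cyp2d2 was at -0.05. Cyp2d1 was at 8.50, 7.90 and 8.04 in the controls and at 8.70, 8.43, 8.92 and 8.25 in the STL livers, a difference of 0.43 (adjusted p = 0.296, SE 0.21). The Cyp2d5 probe, with nearly the same sequence, was at 8.55, 7.98 and 8.09 and at 8.75, 8.50, 9.01 and 8.34, a difference of 0.44. Here control 3 was the lowest sample and control 4 lay close to it. In Cyp2d2, Cyp2d3 and the brighter Cyp2d4 probe, control 4 lay far below the rest. Cyp2d4 was at 4.20, 3.70 and 2.47 in the controls and at 4.48, 3.91, 4.36 and 4.40 in the STL livers, a difference of 0.83 (adjusted p = 0.257), or 0.34 without control 4. The other Cyp2d4 probe differed by 0.68 and had control 3 lowest, with the controls at -0.22, -2.01 and -1.04. Cyp2d2, associated with debrisoquine hydroxylation, was at 5.87, 5.55 and 4.40 in the controls and at 5.53, 5.57, 5.64 and 5.91 in the STL livers, a difference of 0.39. Cyp2d3 differed by 0.86, and by 0.25 without control 4.

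Of the 4 Cyp2b genes tested, a subfamily that holds forms inducible through CAR, 2 were higher and 2 lower, with a median of 0.08. Cyp2b2, the phenobarbital-inducible form, was at 3.73, 3.66 and 4.30 in the controls and at 4.32, 3.89, 3.78 and 3.40 in the STL livers, a difference of -0.05 (95% interval -0.57 to 0.47), or 0.15 without control 4. It is among the few members in which control 4 was the highest control. Cyp2b3 was at 7.79, 7.95 and 7.04 in the controls and at 7.76, 7.63, 8.09 and 7.73 in the STL livers, a difference of 0.21 that was -0.06 without control 4. Cyp2b15 was at -3.38, -4.27 and -4.17 in the controls and at -3.11, -3.41, -3.42 and -3.72 in the STL livers, a difference of 0.53 (adjusted p = 0.328). Its averaged control lay inside the STL range. Cyp2b21 was at -2.0, -2.41 and -1.74 in the controls and at -1.69, -1.94, -2.40 and -2.65 in the STL livers, a difference of -0.12 that was 0.08 with normexp and 0.04 without control 4. No probe carried the name Cyp2b1. Of the members induced by CAR or PXR, 4 were tested and 3 were higher in STL, or 4 without control 4.

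The Cyp2j genes code for epoxygenases of arachidonic acid. Cyp2j4 was at 5.67, 4.98 and 5.29 in the controls and at 6.06, 5.73, 6.0 and 5.43 in the STL livers, a difference of 0.49 (adjusted p = 0.246, SE 0.20), and 0.48 without control 4. Only STL 8 lay below the averaged control. Cyp2j3 was at 4.35, 3.33 and 3.00 in the controls and at 3.65, 3.40, 3.97 and 3.72 in the STL livers. The averaged control was its highest sample, and the difference of 0.12 was -0.16 without control 4 and -0.07 with all 8 arrays as samples. Of the 5 epoxygenase members tested, 4 were higher and 1, Cyp2c24, was lower, with a median of 0.24. Without control 4 there were 3 and 2, with a median of 0.04.

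The remaining subfamilies had 1 tested member each, and none was separated by group at its brightest probe. Cyp2r1, a vitamin D 25-hydroxylase, was at -2.56, -2.13 and -3.15 in the controls and at -3.13, -2.61, -2.34 and -2.28 in the STL livers. Its difference of 0.02 changed sign with median scaling, with array weights and, at -0.25, without control 4. Cyp2u1, a fatty acid hydroxylase, was at 1.40, 2.0 and 1.25 against 2.10, 1.40, 1.74 and 1.93, a difference of 0.24, or 0.09 without control 4. Its other probes differed by 0.17 and 0.69, and in the latter every STL sample lay above every control sample. Cyp2s1, best known from epithelia, was at -1.56, -1.61 and -1.31 against -1.35, -1.05, -0.78 and -1.56, a difference of 0.31. In Cyp2s1 and the brightest Cyp2u1 probe, the groups overlapped. Cyp2f4, a lung form that bioactivates naphthalene, was at 3.34, 3.80 and 3.25 against 3.98, 3.89, 3.41 and 3.51, a difference of 0.23, or 0.13 without control 4. Cyp2t1 was at 2.57, 2.53 and 1.92 against 1.99, 2.05, 2.04 and 2.43, a difference of -0.21, or -0.42 without control 4. The adjusted p of these 5 members lay between 0.419 and 0.971.

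The control livers differed widely among themselves. Control 4 lay below the range of the 4 STL livers in 28 of 35 members (80.0%), against 39.5% of all genes tested. Control 3 lay below it in 18 members (51.4%), against 32.2% of all genes. The averaged control 1 and 2 lay inside that range in 27 members (77.1%), against 59.2% of all genes. Control 4 was the lowest of the 7 samples in 23 of 35 members and the highest in 3, Cyp2c12, Cyp2c24 and Cyp3a62. It lay above the STL range in those 3 (8.57%), against 24.6% of all genes. Among the STL livers, STL 7 was the highest sample in 15 members and STL 5 in 12. How often each sample was the lowest or highest over all genes was not counted. Control 4 had the highest 75th percentile of processed signal, 604.9, and STL 7 the lowest, 304.1, with 58.8% and 54.2% of probes well above background. The part of overall signal in these orders was not tested, beyond the other scalings tried.

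**Figure D3:**
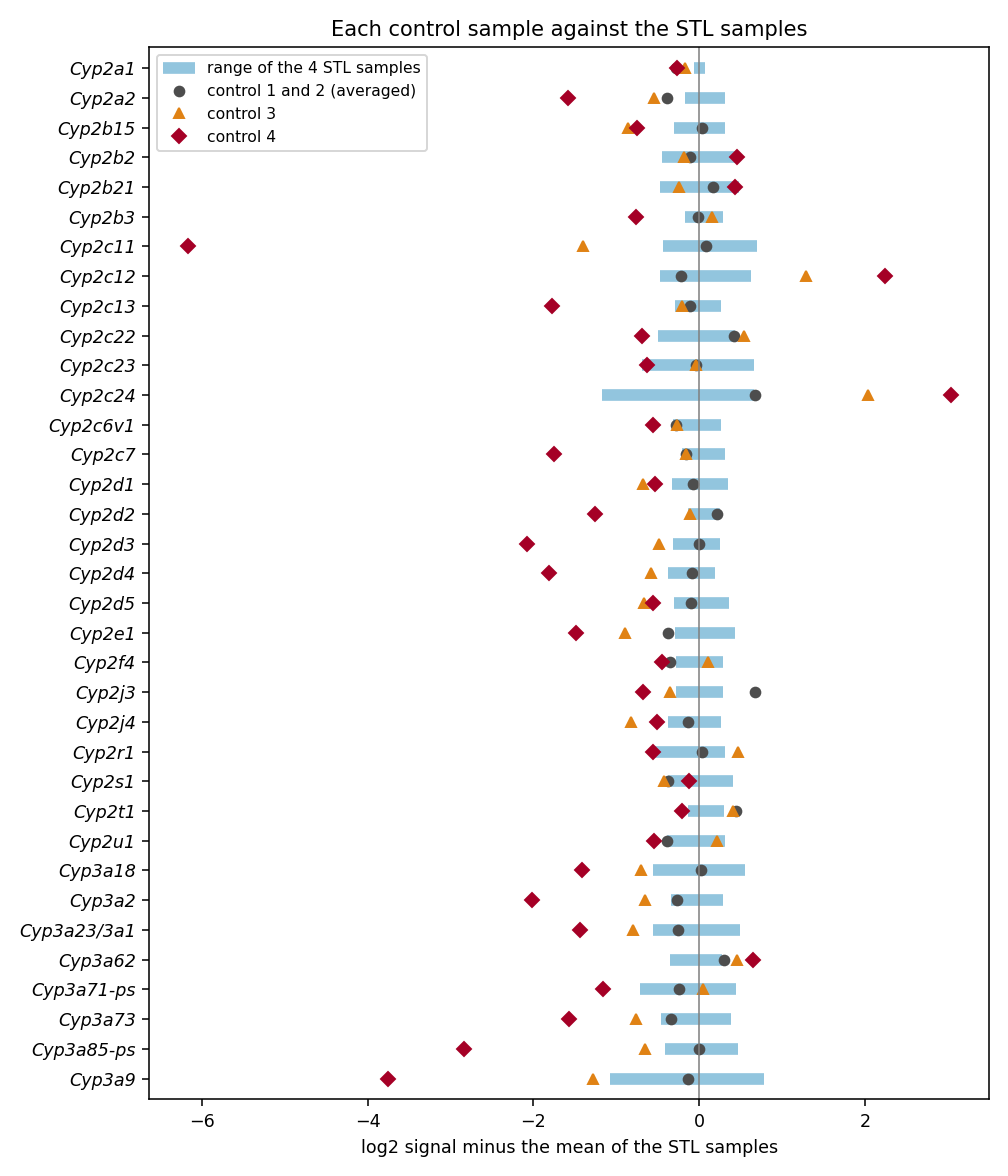
Level of each control sample minus the mean of the 4 STL samples, for the 35 members tested, with the blue bar the range of the STL samples. The averaged control 1 and 2 lies inside the bar in 27 of 35 members, and control 4 lies below it in 28.

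Marker genes of liver cells also varied over these samples. Markers of preneoplastic hepatocytes had a lower mean in STL in 8 of 8 genes, while 58.0% of all genes were higher. Their differences ran from -3.77 to -0.02, with a median of -2.01. By limma 0 passed over all genes and 6 were lower at an unadjusted p under 0.05, as were 7.38% of all genes. Without control 4 all 8 were still lower, with a median of -1.39 and 3 at that p. Gstp1, the placental glutathione transferase that marks the lesions, was at 4.96, 6.05 and 7.09 in the controls and at 1.39, 5.29, 2.67 and 1.53 in the STL livers. Its highest level was in control 4, and STL 6 lay among the controls. The markers' summed signal, in multiples of the array's 75th percentile, was 117 to 346 in the controls, highest in control 4, and 38.3 to 142 in STL. Such a sum weighs the brightest probes of a list most, so it does not count cells. Hepatocyte markers, 8 of 9 tested higher, summed to 2151 (control 4) to 2947 in the controls and 2970 to 4320 in STL. The part of either list in the members' differences was not tested.

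Markers of other liver cells were measured on the same scale, and the counts below stand beside 58.0% of all genes higher in STL. Cholangiocyte markers, 6 of 7 lower, summed to 4.82 to 11.1 in the controls and 2.39 to 5.64 in STL, and stellate cell and matrix genes, 6 of 7 lower, to 43.3 to 92.7 and 25.5 to 39.9. Both sums were highest in control 4. Without control 4 as many genes of both lists were lower. The median difference of the cholangiocyte markers was then -0.47, against -1.04 with it. That of the stellate cell and matrix genes was -0.40, against -0.58. Macrophage markers, 6 of 8 lower, summed to 121 to 150 and 107 to 151, and endothelial markers, 4 of 6 higher, to 50.8 to 76.2 and 75.8 to 99.5. Lymphocyte markers, 5 of 5 higher, summed to 13.2 to 17.7 and 13.3 to 19.3. In these sums Kdr and Vwf weigh most among the endothelial markers. Cd4, the only lymphocyte marker tested with a level above 0, weighs most in the lymphocyte sum. Cd3e and Ms4a1 were well above background on 0 arrays, and Lum on 1. The part of these cells in the members' values was not tested.

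Genes of heme synthesis and breakdown were mostly higher in the STL livers, and control 4 was not the lowest sample in each of them. Alas1, the rate-limiting enzyme of heme synthesis, was at 5.72, 5.52 and 6.24 in the controls and at 6.77, 6.85, 6.76 and 6.69 in the STL livers. The 4 STL livers lay within 0.16 of each other and above every control, and control 4 was the highest control. The difference was 0.94 (SE 0.17, limma adjusted p = 0.161), and 1.14 without control 4. Of 12 genes of heme synthesis and breakdown, 9 had a higher mean in STL and 6 did so at an unadjusted p under 0.05. Over all genes tested these shares were 58.0% and 11.5%. The median difference of the 12 was 0.29, and 0 passed the threshold over all genes. Alad, Cpox and Urod, which code for later steps of the pathway, differed by 0.65, 0.52 and 0.36. In each, every STL liver lay above every control, as in 11.2% of all genes.

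Cytochrome P450 reductase, Por, was at 3.32, 2.55 and 3.18 in the controls and at 3.33, 3.56, 3.38 and 3.73 in the STL livers, a difference of 0.49 (adjusted p = 0.236). STL 5 lay only 0.01 above the averaged control. Cytochrome b5, Cyb5a, was at 7.92, 7.75 and 7.65 and at 8.33, 7.98, 8.53 and 8.23, a difference of 0.49 (adjusted p = 0.194). Of the 5 redox partners tested, 3 were higher and 2 lower in STL, while 58.0% of all genes were higher. Their median was 0.12, or 0.05 without control 4, and only Por and Cyb5a had an unadjusted p under 0.05.

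The list of receptors and hepatocyte transcription factors was higher in STL in 13 of 14 genes, with a median difference of 0.40 and 7 at an unadjusted p under 0.05. Over all genes tested 58.0% were higher and 11.5% were higher at that p. Without control 4, 12 of the 14 were higher, with a median of 0.23 and 5 at that p. None of the 14 passed over all genes in the comparison of all samples. Foxa2, a pioneer factor of liver genes, was at 3.19, 3.06 and 3.56 in the controls and at 4.69, 4.59, 4.87 and 4.28 in the STL livers, a difference of 1.34 (adjusted p = 0.099). Control 4 was the highest control here. Cebpa, Ppara and Foxa1 differed by 0.83, 0.77 and 0.62, with every STL liver above every control. Nr1i2, which codes for PXR, differed by 0.30 (adjusted p = 0.237). Nr1i3, which codes for CAR, was at 2.14, 2.46 and 2.71 against 2.98, 2.80, 2.21 and 1.83, a difference of 0.02 with wide overlap.

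**Figure D4:**
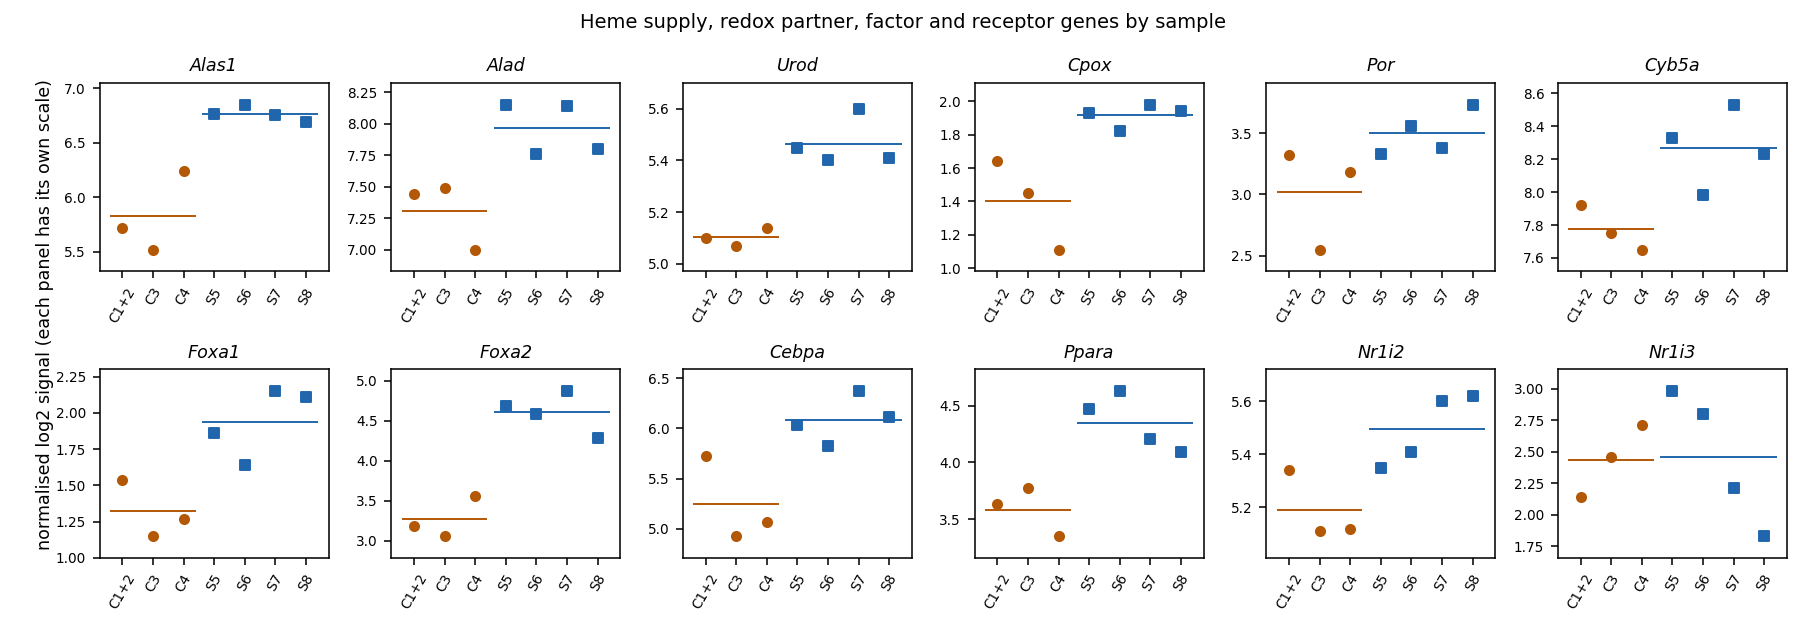
Normalised log2 signal of genes of heme synthesis (Alas1, Alad, Urod, Cpox), electron transfer (Por, Cyb5a), hepatocyte factors (Foxa1, Foxa2, Cebpa, Ppara) and the receptors PXR (Nr1i2) and CAR (Nr1i3) in each sample, named as C1+2, C3 and C4 for controls and S5 to S8 for STL. Lines are group means and each panel has its own scale. In every panel but that of Nr1i3 all STL livers lie above all controls.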

How the data were processed

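Liver RNA of 8 arrays on 1 slide was labelled with Cy3, per the labels' protocols. The deposited scanner files hold the intensity of each spot, made with Agilent Feature Extraction, version 11.5.1.1 per the file headers and 10.7 per the submitters' processing notes. Flagged outlier spots were left out, spots of a probe averaged, and log2 intensity scaled to each array's 75th percentile over 45598 non-control probes. The brightest probe stood for a gene, and a gene entered the test if its probe was well above background on 4 or more of the 8 arrays. The fit used limma 3.58.1 under R 4.3.3 (lmFit, eBayes with an intensity trend, two-sided, Benjamini-Hochberg). The fit was also run on simulated data with independent noise in each gene and no sample set apart. That run therefore does not bear on control 4. The authors' series table of scaled intensity was an alternative. The number of arrays limits the precision. Python 3.11.15, pandas 2.3.3, numpy 2.4.6 and matplotlib 3.10.9 were used. Members and lists were chosen with earlier results of these data known. Values in every sample were given for the 3 members with the smallest p in each subfamily and for a fixed list of sex-biased, inducible and other members, and at most 4 genes of each other list were named by p, beside Por, Cyb5a, Alas1, Nr1i2, Nr1i3 and Cish. Of the marker genes listed 1 is not reported here, nor is 1 of the probe sequences.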

Additional observations from a re-analysis of the deposited data

Results flagged for a closer look

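Cyp2t1 in STL 8, at 2.43, stood apart from the other STL livers, which lay between 1.99 and 2.05. Its gap to the nearest of them was 0.857 of the group's whole range, above Dixon's 95% critical value for 4 samples. This was 1 of 35 groups examined, and chance flags about 1 in 20.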

How the results depend on the processing

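Over 20 alternatives the 35 members gave 700 differences, of which 676 kept their direction and their side of the threshold, 23 changed sign, in 10 members, and 1, that of Cyp2c24 with array weights, passed the threshold. The count of members past the threshold was 1 with array weights and 0 in the other 19, and leaving out each array in turn kept it at 0. For all genes the count of 1 became 21 with each of the 8 arrays as a sample, 206 with control 1 and 2 both left out, 1537 with array weights, and 1 to 45 when an array was left out, with 45 without STL 6 and 3 without control 3. Changes of sign were Cyp2j3 at -0.07 with 8 arrays and at -0.07 with slide column as a block, Cyp2c22 at 0.07 without control 1 and 2, Cyp2r1 at -0.02 with median scaling, Cyp2c23 at -0.01 with quantile normalization and Cyp2b21 at 0.08 with normexp. With array weights they were Cyp2b3 at -0.07, Cyp2f4 at -0.01, Cyp2r1 at -0.21 and Cyp2u1 at -0.00341. Leaving out an array gave ranges that span 0 for Cyp2b2 (-0.20 to 0.15), Cyp2b21 (-0.30 to 0.04), Cyp2b3 (-0.06 to 0.39), Cyp2c22 (-0.48 to 0.14), Cyp2d2 (-0.05 to 0.53), Cyp2j3 (-0.16 to 0.22) and Cyp2r1 (-0.25 to 0.27). The cause was not tested. No paired analysis was possible because the groups share no replicate numbers. A block of slide column, a position on the array slide and not a pairing of animals, gave 0 members past the threshold. It was run over all 8 arrays, with control 1 and control 2 as separate samples.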
